A study of Mus musculus with 12 samples.

Results

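The genes described here are Hprt and 9 other enzymes that make, salvage or break down purine nucleotides: Aprt, Ada, Ppat, Gart, Paics, Adsl, Gmps, Impdh1 and Impdh2. Hprt was chosen by its own FPKM in these libraries, because its transcript was nearly missing from the cells derived from pluripotent stem cells. Its levels are therefore given as a description and without a test. The others were taken because they act in the same metabolism. The 10 genes stand among 23284 gene symbols of the deposited expression table, and all 10 were among the 12699 genes tested.

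Expression was measured by bulk RNA-seq in sorted muscle progenitors of mice, in 4 groups of 3 libraries each. All 4 groups were labelled with the strain 129P2/OlaHsd, and in all of them tissue was digested with collagenase and dispase and cells were sorted as CD31- CD45- α7-integrin+ VCAM+, a gate for myogenic progenitors that leaves out endothelial cells and leukocytes. Teratoma cells were sorted from tumours that had grown from pluripotent stem cells for 3 weeks. The transplant group was sorted again from tibialis anterior muscle 1 month after it had received sorted teratoma cells, so it descends from the teratoma population. Embryo cells were taken from entire E14.5 embryos, and adult cells from hindlimbs of males aged 8 weeks. The teratoma and transplant groups are called stem-cell-derived, and the embryo and adult groups native. The labels name neither the stem cell line, the host strain of the teratomas and transplants, nor the sex of the other groups. The replicates are called biological, with no word on whether each came from a separate animal, and the p-values measure the variation among these libraries, which may be technical. In sorted bulk samples, fewer cells of a type and less RNA per cell cannot be told apart.

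The values are FPKM, a fragment count divided by transcript length and by library size, so levels of different genes can be compared. Read depth is unknown from them, and an FPKM listed at exactly 0 can be a failed estimate. Summed FPKM ranged from 413000 to 12340000 per library, and 9495 to 12000 genes reached 1 FPKM. The 7 myogenic marker genes summed to 281–369 FPKM in teratoma libraries, 312–424 in transplant, 119–135 in embryo libraries and 571–709 in adult libraries. They include Itga7 and Vcam1, whose proteins the cells were sorted on, so the presence of these genes followed from the gate. Pax7 and Myf5, which are not part of the gate, stood at 8.24 FPKM or more in every library. Markers of other cells were present too. Epithelial and endodermal markers summed to 209–629 FPKM in the teratoma libraries against 0.0963–0.435 in transplant libraries, where Epcam, Ttr, Afp, Alb and Reg3g were listed at 0 throughout, and 4.07–18.4 in embryo and 0.634–1.99 in adult libraries. Erythroid markers summed to 293–1967 FPKM in embryo libraries and to at most 42.0 elsewhere. Leukocyte markers were highest in the teratoma libraries, at 36.7–116 FPKM against 12.2–23.7 in transplant, 2.58–11.3 in embryo libraries and 7.18–15.6 in adult libraries. Fibroblast markers summed to 1195–1604 FPKM in teratoma, 2097–3038 in transplant, 895–1265 in embryo libraries and 669–944 in adult libraries. Endothelial markers summed to 43.1–54.2 FPKM in teratoma, 6.88–9.51 in transplant, 19.2–41.2 in embryo libraries and 18.3–29.3 in adult libraries, and none of the 7 was listed at 0 throughout a group, although the gate is CD31-. The part of these other cells in the results was not tested, except where a value is given.

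Cells obtain purine nucleotides by making them anew or by salvaging free bases. De novo synthesis starts from phosphoribosyl pyrophosphate, made by the PRPS enzymes, and builds the purine ring on it step by step to inosine monophosphate (IMP), which is then turned into AMP or GMP. Salvage is cheaper: HPRT joins hypoxanthine or guanine to phosphoribosyl pyrophosphate, and APRT does the same with adenine. Dividing cells are known to draw on both routes, and loss of HPRT in people causes overproduction of uric acid.

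Hprt lies on the X chromosome at chrX:52988137-53021659 on the forward strand (mm10; GENCODE M21, ENSMUSG00000025630), and no exon of another annotated gene overlaps its exons. The 250 bases before its RefSeq start are printed because this stretch includes the GC-rich region upstream of the gene whose transcript all 6 stem-cell-derived libraries nearly lacked. They span chrX:52987828-52988077 on the forward strand (RefSeq, GRCm38.p6), hold no annotated exon, and the capitals mark GC boxes, GGGCGG.
Hprt upstream: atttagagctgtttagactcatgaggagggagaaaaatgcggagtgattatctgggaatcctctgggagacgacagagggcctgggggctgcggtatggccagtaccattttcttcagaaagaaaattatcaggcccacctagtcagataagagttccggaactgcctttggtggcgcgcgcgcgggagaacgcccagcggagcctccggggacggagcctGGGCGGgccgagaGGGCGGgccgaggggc
The GC box, searched as GGGCGG on both strands, was found in the 250-base promoter windows of all 10 genes and in 32.7% of the 32851 RefSeq windows of that length. CCAAT was found before Ada, Gart and Paics and in 33.9% of windows, and the palindromic NRF1 site before Ppat and in 3.74% of windows. A match is a description of letters and not a bound site.

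Hprt transcript was scarce in both stem-cell-derived groups and abundant in both native groups. In the teratoma libraries it stood at 0.579, 1.69 and 1.45 FPKM (1.24 ± 0.583, SD, n = 3), and in the transplant libraries at 2.02, 0.323 and 0.152 FPKM (0.833 ± 1.03). The embryo libraries held 23.4, 43.8 and 28.9 FPKM (32.0 ± 10.6) and the adult libraries 57.3, 43.5 and 32.7 FPKM (44.5 ± 12.3). No derived library came near a native one: the lowest native value of 23.4 FPKM was 11.6 times the highest derived value of 2.02 FPKM. The teratoma mean was 3.87% of the embryo mean and 2.78% of the adult mean. The transplant mean was 2.60% of the embryo mean and 1.87% of the adult mean. On the log2(FPKM + 1) scale, which understates the change of low genes, the difference between derived and native cells was -4.31 with a standard error of 0.27, and the differences of all other genes are given on the same scale. Between the derived groups it was -0.39 with a standard error of 0.38, and between adult and embryo 0.47 with the same error, so within each kind of cell the difference was about the size of its error. The order of the group means was adult, embryo, teratoma and transplant, with overlapping libraries between adult and embryo and between teratoma and transplant.

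**Figure D1:**
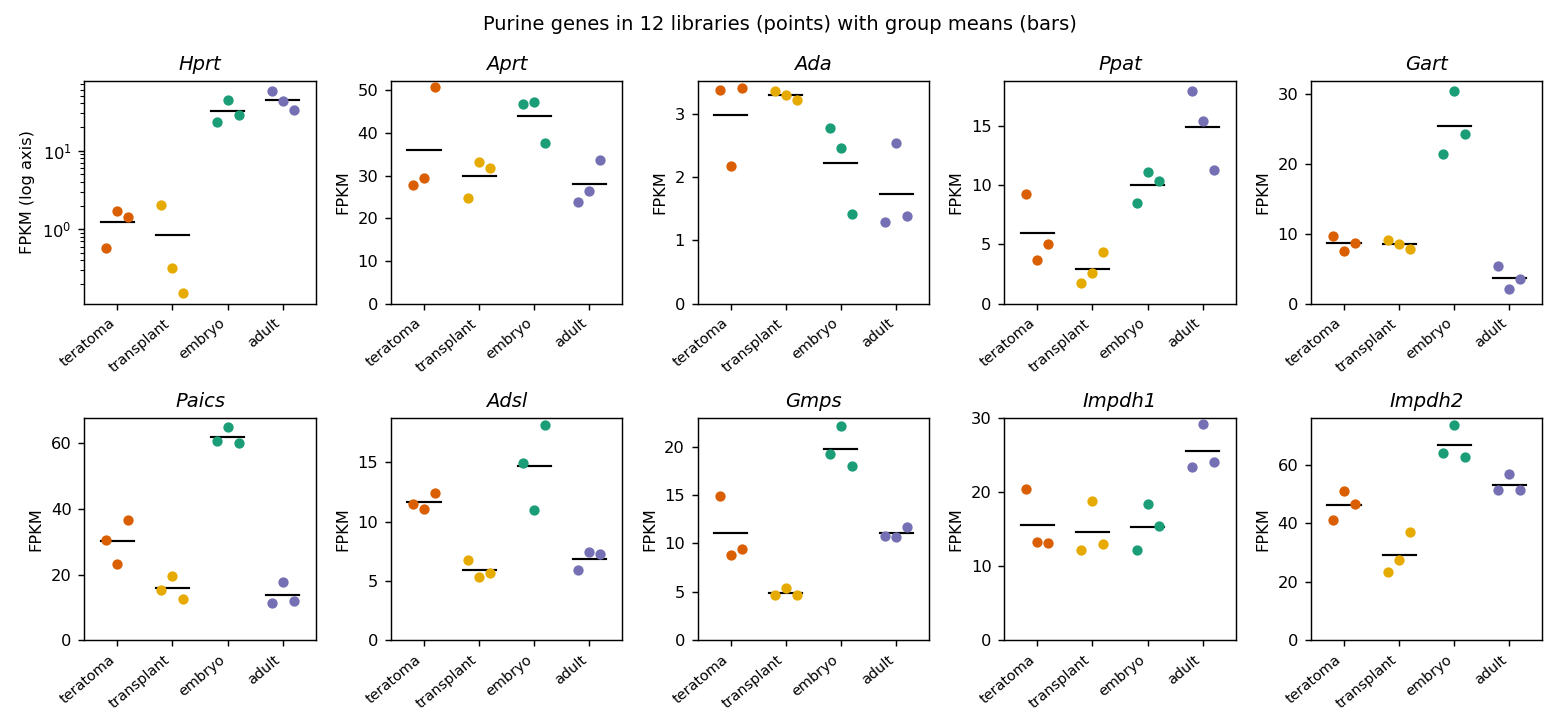
FPKM of the 10 purine genes in 12 libraries (points, 3 per group) with group means (bars), on axes of their own. Hprt is at most 2.02 FPKM in the 6 stem-cell-derived libraries and at least 23.4 FPKM in the 6 native ones, whereas the other genes lie within overlapping or nearly touching ranges.

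Such a separation was uncommon in the table. Of the 12699 genes tested, 122 (0.961%) had every derived library below every native one. Ranked by the gap between the highest derived and the lowest native library on the log2(FPKM + 1) scale, Hprt came second with a gap of 3.01, after Grb10 with 4.12. Grb10, an imprinted gene that encodes an adaptor protein restraining growth signals, ranged from 0.234 to 1.30 FPKM in derived and from 38.9 to 214 FPKM in native libraries. The next gaps were much smaller, at 1.21 for Col19a1, 1.18 for Arhgap20 and 0.93 for Zfp629. These ranks describe the same contrast by which Hprt was chosen.

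The genes whose pattern over the 12 libraries was most like that of Hprt were Col19a1 (Pearson r = 0.974 on the log2 scale), Gabra3 (0.963), Zfp629 (0.937), Hoxc10 (0.928) and Fkbp5 (0.927). The libraries fall into a low and a high block, which these correlations mostly reflect, and they carry no test. Col19a1, which encodes a collagen, reached 0.272 FPKM at most in derived and 1.94–3.06 FPKM in native libraries. Gabra3, a GABA receptor subunit, stood at 0–0.633 against 1.38–3.64 FPKM. Hoxc10, a posterior Hox gene, stood at 0.0549–1.86 against 3.80–5.92 FPKM, and Fkbp5, a co-chaperone of steroid receptors, at 4.06–5.11 against 6.40–8.84 FPKM. All of these genes had lower native levels than Hprt.

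The genes around Hprt on the X chromosome did not share its pattern of low levels in both derived groups against both native groups. Phf6, a chromatin protein gene whose nearest end lies 31.2 kb upstream, measured 4.60 ± 0.641 FPKM in teratoma, 2.17 ± 0.596 in transplant, 9.50 ± 2.19 in embryo libraries and 3.36 ± 0.222 in adult libraries. It was lower in derived than in native cells (log2 difference -0.69, limma adjusted p = 0.00625), yet the teratoma libraries (3.88–5.12 FPKM) all exceeded the adult ones (3.12–3.56). The transplant libraries (1.49–2.61 FPKM) all lay below every native one, though transplant against adult was not called (-0.48, limma adjusted p = 0.112). Plac1, the nearest tested gene downstream at 48.3 kb, was listed at 0 in every transplant and every adult library and averaged 1.04 FPKM in teratoma and 3.86 in embryo, with no call between derived and native cells (-0.66, limma adjusted p = 0.0813). It was called lower without teratoma replicate 1 or embryo replicate 1 (adjusted p 0.0235 to 0.0335) and with quantile normalization (-0.74, adjusted p = 0.0266). Gpc3 and Gpc4 are glypican genes that encode cell-surface proteoglycans. Gpc3 averaged 157 FPKM in teratoma, 39.0 in transplant, 318 in embryo libraries and 15.2 in adult libraries. Both derived groups were below embryo (-1.02 and -3.00) and above adult (3.27 and 1.29), each called by limma, and the pooled difference of 0.13 (adjusted p = 0.382) averages these opposite values. Gpc4 averaged 34.1, 42.4, 39.0 and 19.2 FPKM in the same order, with a pooled difference of 0.45 (limma adjusted p = 0.0682). It was called higher without teratoma replicate 3 or embryo replicate 3 (adjusted p 0.0164 to 0.0385) and with library weights (adjusted p = 0.0309). Of the 5 tested genes on each side, Phf6 and Mbnl3 were called lower between derived and native cells. Mbnl3, a splicing regulator 1782 kb upstream, differed by -1.05 (limma adjusted p = 0.000877), and this rested on the embryo group: it averaged 6.92 FPKM there and at most 0.83 FPKM in any other group. Hs6st2, Fam122b, Mospd1, Zfp449 and Mmgt1 had pooled differences between -0.37 and 0.37, none of them called. Against embryo, Phf6, Plac1, Fam122b (-1.43 and -2.37), Gpc3 and Mbnl3 were called lower by limma in both derived groups. Zfp449 was lower in teratoma only and Mmgt1 in transplant only. Of all genes, 10.6% were called lower in teratoma and 27.6% in transplant. Against adult none of the neighbours was called lower. Hs6st2, Gpc4, Gpc3 and Zfp449 were higher in both derived groups, where 36.4% and 27.3% of all genes were. Zfp449 and Mmgt1 lie far off, at 3325 and 3564 kb. Across the 395 other tested genes of the X chromosome, the median difference was 0.10 against 0.11 over all tested genes, with 87 called higher and 53 lower. The shares over all tested genes in this comparison were 23.6% higher and 13.2% lower, close to those on the X chromosome.

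**Figure D2:**
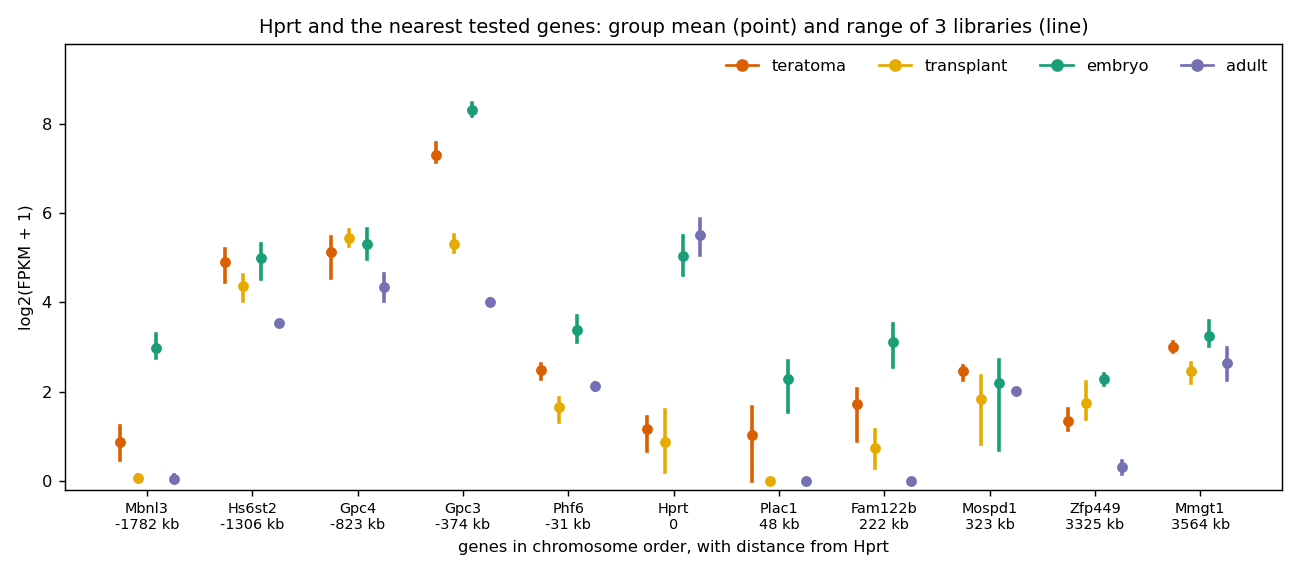
Level of Hprt and the 5 nearest tested genes on each side, in order along the X chromosome, as log2(FPKM + 1) of the group mean (point) and the range of 3 libraries (line) in each of 4 groups. For Hprt the teratoma and transplant ranges lie far below both native ranges. For Phf6 the teratoma range lies above the adult one and the transplant range below it, and for Plac1 and Fam122b adult cells are listed at 0.

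As background, mouse embryonic stem cell lines with a defect in Hprt, such as E14TG2a, were derived from 129P2/OlaHsd mice and are in wide use. The labels do not say which line was used here, and expression values alone do not give a genotype, so the state of the gene in these cells was not tested.

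Aprt, the companion salvage enzyme, showed no such difference. The gene, at chr8:122574635-122576909 on the reverse strand, measured 27.9, 29.4 and 50.8 FPKM in teratoma libraries, 24.8, 33.3 and 31.8 in transplant, 46.9, 47.3 and 37.7 in embryo and 23.7, 26.3 and 33.7 in adult libraries. The groups overlapped, and the derived cells differed from the native ones by -0.11 (95% interval -0.47 to 0.24, limma adjusted p = 0.627). The interval leaves room for differences of that size in either direction, but not for one like that of Hprt. The ratio of Aprt to Hprt was 12.3–209 in the 6 derived libraries and 0.414–2.00 in the native ones, a value fixed in part by the choice of Hprt. Aprt was called in 1 comparison only, lower in adult than in embryo cells (-0.64, limma adjusted p = 0.0331). That call was lost when embryo replicate 1 or 2 or adult replicate 1 or 2 was left out (adjusted p 0.0798 to 0.113) and under both median-ratio scaling and quantile normalization (adjusted p 0.0989 to 0.738).

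Salvage of purines also involves adenosine kinase, deoxycytidine and deoxyguanosine kinases and the phosphorylases Pnp and Mtap. Of the 7 tested salvage genes other than Hprt, none was called between derived and native cells by limma and none reached an unadjusted p under 0.05. Of all genes, 23.6% were called higher and 13.2% lower in this comparison. With quantile normalization 1 of the 7 was called lower. The median difference of the 7 genes, 0.07, was close to the 0.11 of all genes. At the level of separate groups some moved in opposite ways. Pnp, which frees hypoxanthine and guanine from nucleosides and so makes the substrates of HPRT, averaged 17.5 ± 3.21 FPKM in teratoma, 14.8 ± 2.36 in transplant, 7.71 ± 0.904 in embryo cells and 28.0 ± 3.08 in adult cells. Both derived groups were above embryo (1.08 and 0.85) and below adult (-0.66 and -0.88), each called by limma. Without teratoma replicate 3, the difference between teratoma and adult was not called (adjusted p = 0.0537). Mtap, which frees adenine for APRT, had the reverse order, with 7.04 ± 0.813 FPKM in teratoma, 8.32 ± 0.723 in transplant, 18.9 ± 2.16 in embryo cells and 3.00 ± 0.933 in adult cells. Both derived groups were below embryo (-1.31 and -1.09) and above adult (1.03 and 1.24), each called by limma, although the excess of teratoma over adult was not called under quantile normalization (adjusted p = 0.148). Pnp and Mtap were singled out after their values were seen.

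Ada deaminates adenosine and deoxyadenosine to inosine and deoxyinosine, upstream of Pnp. It was low everywhere, at 3.38, 2.18 and 3.42 FPKM in teratoma, 3.37, 3.31 and 3.23 in transplant, 2.79, 2.47 and 1.42 in embryo and 1.29, 2.55 and 1.39 in adult libraries. All 3 transplant libraries were above all native ones, but 1 teratoma library was not. The difference between derived and native cells, 0.50 with a 95% interval of 0.09 to 0.91, was not called (limma adjusted p = 0.0555), though it passed without teratoma replicate 2, embryo replicate 1 or adult replicate 2 (adjusted p 0.034 to 0.0471).

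Among the other 9 genes, Ppat, Gmps and Impdh2 were called lower in derived than in native cells, and none was called higher. Ppat acts at the first committed step of purine synthesis, and Gmps and Impdh2 in the branch to GMP. That is 3 of 9, where 13.2% of all tested genes were called lower, 23.6% higher and 36.8% in either direction. The median difference of the 9 genes was -0.38, against 0.11 over all genes. The call for all 3 genes held under each of the 20 alternatives to the processing. Under median-ratio scaling, Paics and Impdh1 were called lower as well, making 5 of 9, and the count was also 5 without transplant replicate 2.

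Ppat encodes the amidotransferase that commits phosphoribosyl pyrophosphate to purine synthesis and is inhibited by the purine nucleotides it helps to make. It measured 9.25, 3.65 and 4.98 FPKM in the teratoma libraries (5.96 ± 2.93) and 1.71, 2.59 and 4.32 FPKM in transplant libraries (2.87 ± 1.33). The embryo libraries had 8.51, 11.1 and 10.4 FPKM (9.98 ± 1.33) and the adult libraries 17.9, 15.4 and 11.2 FPKM (14.9 ± 3.38). Every transplant library lay below every native one, and teratoma replicate 1 alone among the derived libraries reached into the embryo range. The difference between derived and native cells was -1.40 (SE 0.23, limma adjusted p = 0.000632). Taken apart, transplant was lower than adult with a difference of -2.07 (adjusted p = 0.000339) and lower than embryo with a difference of -1.55 (adjusted p = 0.00211), and teratoma was lower than adult with a difference of -1.25 (adjusted p = 0.00789). Against embryo, teratoma differed by -0.73, which was not called (limma adjusted p = 0.117) but was without teratoma replicate 1 (-1.05, adjusted p = 0.0312).

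The substrate of Ppat is made by the phosphoribosyl pyrophosphate synthetases. Prps1 averaged 6.98 ± 2.48 FPKM in teratoma, 4.15 ± 1.94 in transplant, 8.86 ± 1.17 in embryo libraries and 13.6 ± 3.84 in adult libraries, lower in derived cells with a difference of -0.95 (limma adjusted p = 0.00806). Prps2 averaged 3.15 ± 1.15, 3.18 ± 0.854, 2.38 ± 0.447 and 1.25 ± 0.330 FPKM in the same order. Its difference of 0.58 (limma adjusted p = 0.0338) was lost when any of 7 libraries was left out, namely teratoma replicate 1 or 2, transplant replicate 3, embryo replicate 2 or 3, or adult replicate 1 or 2 (adjusted p 0.0558 to 0.0864), and also with no filter or with quantile normalization.

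After Ppat, the ring is completed by Gart, Pfas, Paics, Adsl and Atic, and these enzymes did not share its pattern. The mean of each was highest in embryo cells. Gart, a trifunctional enzyme, measured 9.72, 7.47 and 8.75 FPKM in teratoma and 9.17, 8.53 and 7.82 FPKM in transplant libraries. It reached 21.4, 30.5 and 24.3 FPKM in embryo and only 5.44, 2.13 and 3.47 FPKM in adult libraries. Both derived groups were thus between the native ones without overlap. They were lower than embryo with a difference of -1.44 (teratoma, limma adjusted p = 0.00136) and -1.46 (transplant, adjusted p = 0.000575), and higher than adult by 1.10 (adjusted p = 0.0038) and 1.08 (adjusted p = 0.00422). The teratoma excess over adult fell to 0.50 to 0.66 and was not called under median-ratio scaling or quantile normalization. Exons of Gart share 1014 bases with Gm15964 on the other strand. The library kit keeps strand, but use of strand in the counting is not given, so reads there cannot be told apart.

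Paics, which carries out the next carboxylation and ligation steps, measured 30.6, 23.2 and 36.5 FPKM in teratoma, 15.4, 19.5 and 12.6 in transplant, 60.6, 65.0 and 59.9 in embryo and 11.2, 17.8 and 11.9 in adult libraries. The embryo libraries stood above all others and the teratoma libraries second, while transplant and adult overlapped. Teratoma was below embryo with a difference of -1.04 (limma adjusted p = 0.0046) and above adult by 1.10 (adjusted p = 0.00176), though not under median-ratio scaling (0.59, adjusted p = 0.0555). Transplant was below embryo with a difference of -1.92 (adjusted p = 2.8e-05) and differed from adult by 0.21 (adjusted p = 0.464). Between derived and native cells the difference of -0.41 was not called (adjusted p = 0.0549), and 7 of 20 alternatives called it, 3 of them by leaving out teratoma replicate 3, transplant replicate 2 or adult replicate 1 (adjusted p 0.0345 to 0.0487).

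Adsl, which acts both in ring synthesis and in the branch to AMP, measured 11.5, 11.1 and 12.4 FPKM in teratoma, 6.79, 5.36 and 5.70 in transplant, 15.0, 10.9 and 18.1 in embryo and 5.96, 7.42 and 7.27 in adult libraries. Teratoma overlapped embryo and transplant overlapped adult. Transplant was lower than embryo with a difference of -1.15 (limma adjusted p = 0.000628) and lower than teratoma with a difference of -0.87 (adjusted p = 0.00908). Teratoma exceeded adult by 0.69 (limma adjusted p = 0.0146), a call lost without adult replicate 1 (adjusted p = 0.0575) and under both scalings (0.21 and 0.23).

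Pfas and Atic, the remaining enzymes of the route, were read beside them. Pfas averaged 6.37 ± 0.739 FPKM in teratoma, 2.13 ± 0.429 in transplant, 11.8 ± 1.65 in embryo libraries and 2.83 ± 0.377 in adult libraries. It was lower in derived than in native cells with a difference of -0.54 (limma adjusted p = 0.0114). That value averages opposite differences: teratoma was below embryo (-0.79) but above adult (0.94, limma adjusted p = 0.00277). The excess over adult was not called under median-ratio scaling or quantile normalization. Transplant was below embryo (-2.03) and not called against adult (-0.30, adjusted p = 0.26). Atic averaged 18.2 ± 0.860, 12.1 ± 2.38, 35.0 ± 6.20 and 8.63 ± 1.57 FPKM in teratoma, transplant, embryo and adult libraries. Its difference between derived and native cells was -0.23 (limma adjusted p = 0.22).

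Ppat and Paics are neighbours that are transcribed away from each other on chromosome 5, Ppat on the reverse strand at chr5:76913249-76951578 and Paics on the forward strand at chr5:76951307-76967509. Their RefSeq starts overlap head to head by 276 bases, and the annotated exons share 272 bases, where reads cannot be told apart without strand. A 30-base stretch at chr5:76951087-76951116 (RefSeq, GRCm38.p6, forward strand), inside an exon of Ppat, is shown because it holds an E-box, CACGTG, in capitals, the motif bound by MYC and MAX.
Ppat and Paics E-box: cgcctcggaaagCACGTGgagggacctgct
Among the 10 genes, the E-box, searched as CACGTG on both strands of 250-base windows before each RefSeq start, was found for Paics and Impdh2, and in 6.02% of all 32851 windows. It says nothing about binding.

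Although they adjoin, the pair was not expressed in a fixed ratio. Paics was 5.67 ± 2.10 times Ppat in teratoma libraries, 6.49 ± 3.18 times in transplant and 6.26 ± 0.749 times in embryo libraries, but 0.946 ± 0.283 times in adult libraries. The adult ratios of 0.624, 1.16 and 1.06 all lay below the lowest of the other 9 libraries, 2.92. Ppat made up 25.5–33.8% of the summed FPKM of the 6 IMP-synthesis enzymes in adult libraries and 3.67–10.8% in the rest. The adult progenitors held the highest Ppat with the lowest Gart and Atic means of the 4 groups. The summed FPKM of the 6 enzymes was 69.6–87.5 in teratoma, 42.9–52.7 in transplant, 148–165 in embryo libraries and 44.0–54.4 in adult libraries, with transplant and adult overlapping.

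**Figure D3:**
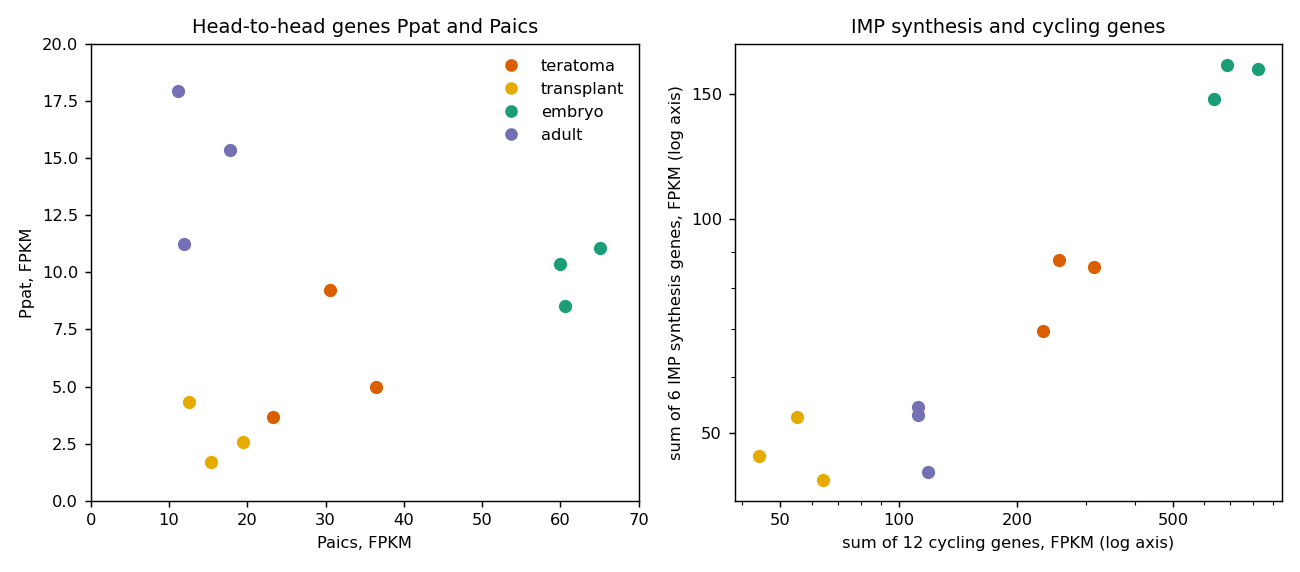
Left, FPKM of Ppat against Paics in 12 libraries: the 3 adult libraries have Ppat at or above 11.2 FPKM with Paics at or below 17.8 FPKM. Right, summed FPKM of 6 IMP-synthesis enzymes against summed FPKM of 12 cycling genes, both on log axes: embryo is highest and teratoma second on both, and transplant and adult overlap in IMP synthesis.

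The summed FPKM of cell cycle genes was, like the IMP-synthesis sum, highest in embryo and second in teratoma libraries. The 12 cycling genes, which mark dividing cells, summed to 234–314 FPKM in teratoma, 44.2–64.3 in transplant, 636–820 in embryo libraries and 112–119 in adult libraries. All 12 were called lower in teratoma than in embryo, where 10.6% of all genes were. All 12 were also called lower in transplant than in teratoma, where 18.5% of all genes were. The part of dividing cells in the level of Gart, Paics, Adsl, Pfas and Atic was not tested. The cycling sum was lower in transplant than in adult libraries without overlap, but as deposited most single genes did not follow it. Of the 12 genes, Cdk1 (0.83), Mcm2 (1.06) and Mcm6 (0.84) were called higher by limma in transplant and only Pcna (-1.67) lower. Of all genes, 27.3% were called higher and 16.9% lower. The median of the 12 genes was 0.38 against 0.23 over all genes. Median-ratio scaling also gave 3 higher and 1 lower (median 0.25), but quantile normalization gave 0 higher and 1 lower (median -0.093). The IMP-synthesis sums of the same groups overlapped.

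From IMP, the route to GMP runs through IMP dehydrogenase and GMP synthetase. Gmps, at chr3:63976106-64022579 on the forward strand, is the gene of the GMP branch with the largest difference between derived and native cells. The 213 bases directly before it, chr3:63975893-63976105 (RefSeq, GRCm38.p6, forward strand), are shown with their single GC box in capitals, to be set beside those of Hprt.
Gmps upstream: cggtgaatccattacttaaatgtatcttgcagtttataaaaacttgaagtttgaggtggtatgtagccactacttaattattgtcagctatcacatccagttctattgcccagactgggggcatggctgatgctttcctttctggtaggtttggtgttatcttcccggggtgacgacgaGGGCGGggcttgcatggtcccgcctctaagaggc
The same letters thus stand before both genes, and before all 10.

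Gmps measured 14.9, 8.78 and 9.45 FPKM in teratoma libraries (11.0 ± 3.34), 4.64, 5.42 and 4.68 in transplant (4.91 ± 0.438), 19.3, 22.1 and 18.0 in embryo (19.8 ± 2.12) and 10.8, 10.7 and 11.7 in adult libraries (11.1 ± 0.580). The transplant libraries were the lowest and the embryo libraries the highest, each without overlap, and teratoma spanned the adult range. The difference between derived and native cells was -0.93 (SE 0.14, limma adjusted p = 0.000424). Transplant was lower than embryo with a difference of -1.81 (adjusted p = 2.13e-05), than adult with a difference of -1.03 (adjusted p = 0.00137) and than teratoma with a difference of -0.99 (adjusted p = 0.00433). Teratoma was lower than embryo with a difference of -0.82 (limma adjusted p = 0.0102), a call lost without teratoma replicate 2 (-0.69, adjusted p = 0.0517) and when these groups were fitted alone (adjusted p = 0.0519). Between teratoma and adult the difference was -0.04 (95% interval -0.47 to 0.40), and its call depended on the scaling, with -0.53 (adjusted p = 0.0352) under median-ratio scaling.

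Impdh2, the form of IMP dehydrogenase that is induced in dividing cells, lies at chr9:108560286-108565584 on the forward strand. Its E-box, inside the gene's own exon at chr9:108560314-108560343 (RefSeq, GRCm38.p6, forward strand), is shown in capitals to set it beside that of Paics.
Impdh2 E-box: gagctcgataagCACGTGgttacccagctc
Impdh2 measured 41.3, 51.1 and 46.8 FPKM in teratoma, 23.4, 27.6 and 37.0 in transplant, 64.0, 73.7 and 62.8 in embryo and 51.3, 57.1 and 51.3 in adult libraries. Like Hprt it was among the genes with every derived library below every native one, but only by 51.09 against 51.28 FPKM. Derived cells were lower with a difference of -0.69 (SE 0.12, limma adjusted p = 0.00102). Transplant was lower than embryo with a difference of -1.18 (adjusted p = 0.000166), than adult with a difference of -0.86 (adjusted p = 0.00162) and than teratoma with a difference of -0.66 (adjusted p = 0.0164). The last call was lost without teratoma replicate 2 or transplant replicate 1 or 2 (adjusted p 0.0506 to 0.0701) and under both scalings. Teratoma was lower than embryo with a difference of -0.52 (limma adjusted p = 0.0413), which 10 of the 12 leave-outs ended, all but transplant replicates 1 and 3 (adjusted p 0.0533 to 0.119). Median-ratio scaling, library weights and fitting these groups alone also ended it (adjusted p 0.065 to 0.0948), so 8 of 21 alternatives kept this call. Between teratoma and adult the difference of -0.20 was not called (limma adjusted p = 0.362), except under median-ratio scaling (-0.72, adjusted p = 0.00888). Exons of Impdh2 overlap Ndufaf3 by 48 bases.

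Impdh1, the form that resting cells carry, was set apart by adult cells. It measured 20.4, 13.3 and 13.1 FPKM in teratoma, 12.1, 18.8 and 12.9 in transplant, 12.2, 18.4 and 15.4 in embryo and 23.4, 29.2 and 24.0 in adult libraries. The adult libraries were above all others and the remaining groups overlapped. Adult exceeded embryo by 0.72 (limma adjusted p = 0.0192), and teratoma and transplant were lower than adult with a difference of -0.70 (adjusted p = 0.0259) and -0.78 (adjusted p = 0.0152). These calls were not firm: without adult replicate 2 none of the 3 remained (adjusted p 0.0512 to 0.0895). The comparison with embryo was also lost without embryo replicate 1, that with teratoma without teratoma replicate 2 or 3, and that with transplant without transplant replicate 1 or 3, within the same range of adjusted p. Impdh2 was 3.15 ± 0.980 times Impdh1 in teratoma, 2.09 ± 0.710 times in transplant, 4.45 ± 0.695 times in embryo and 2.09 ± 0.123 times in adult libraries.

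The branch from IMP to AMP was measured by Adss, adenylosuccinate synthetase. It averaged 23.6 ± 10.5 FPKM in teratoma, 11.8 ± 1.67 in transplant, 26.0 ± 4.16 in embryo libraries and 53.5 ± 4.93 in adult libraries. It was lower in derived than in native cells with a difference of -1.16 (limma adjusted p = 0.000592). Teratoma was not called different from embryo (-0.212, limma adjusted p = 0.59). Transplant was called lower than embryo (-1.076), and both derived groups lower than adult (-1.235 and -2.099). In the list of de novo synthesis genes, which includes 7 of the 10 genes, 6 of 14 tested were called lower and 1 higher in derived than in native cells, where 13.2% of all genes were called lower and 23.6% higher. The median was -0.40 against 0.11 over all genes.

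**Figure D4:**
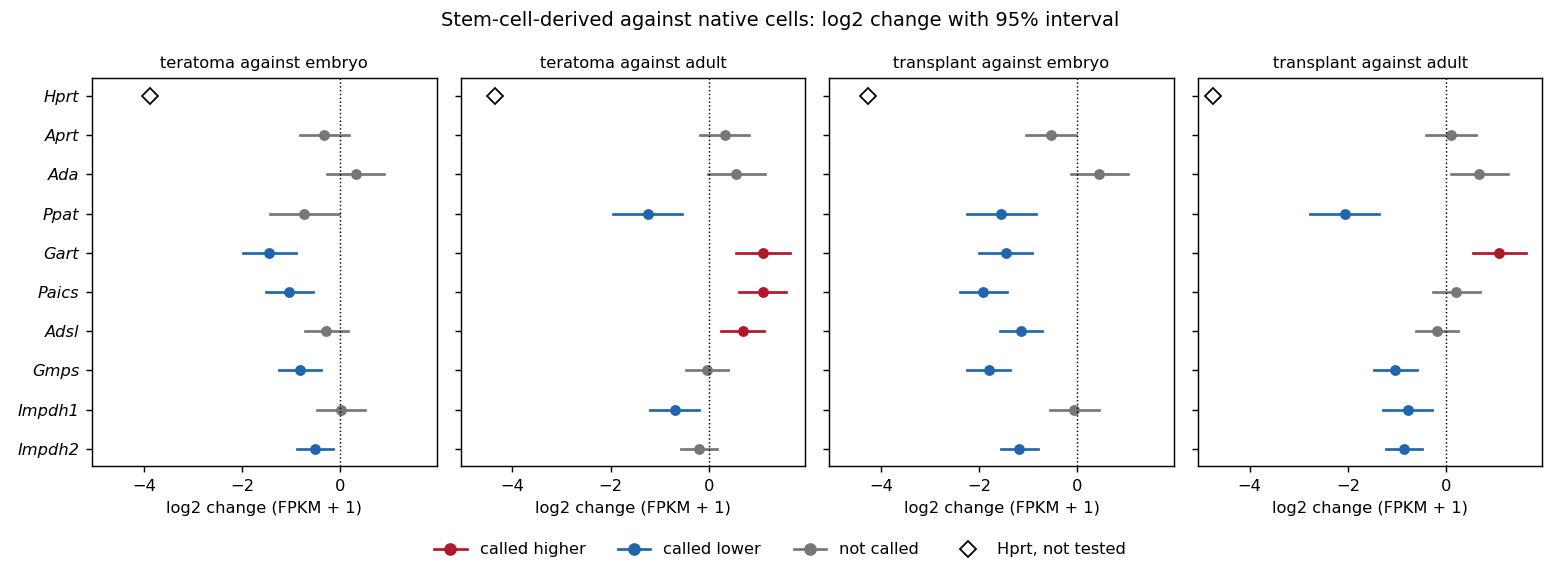
Log2 differences on the FPKM + 1 scale for the 10 genes in each comparison of a derived with a native group, with 95% intervals from limma (lines). Red and blue mark genes called higher and lower, grey those not called, and the open diamond Hprt, which was not tested. Gart lies below 0 against embryo and above 0 against adult in both derived groups, and Ppat lies below 0 in all 4 comparisons.

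The embryo and adult references placed the derived cells differently. Against embryo cells, no gene of the 9 was called higher, where 15.5% of genes were in the teratoma and 14.9% in the transplant comparison. Teratoma cells were lower in Gart, Paics, Gmps and Impdh2, 4 of 9 where 10.6% of all genes were called lower and 26% in either direction, with a median of -0.52 against 0.01. Transplant cells were lower in Ppat, Gart, Paics, Adsl, Gmps and Impdh2, 6 of 9 where 27.6% of all genes were called lower and 42.5% in either direction, with a median of -1.18 against -0.24. Against adult cells the picture was mixed. Teratoma cells were higher in Gart, Paics and Adsl and lower in Ppat and Impdh1, or 3 and 2 of 9 where 36.4% of genes were called higher, 8.94% lower and 45.4% in either direction. Transplant cells were higher in Gart and lower in Ppat, Gmps, Impdh1 and Impdh2, or 1 and 4 of 9 where 27.3% were called higher, 16.9% lower and 44.2% in either direction. The comparisons that use the same reference share its libraries and are not independent.

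These FPKM values carry a shift between groups. The median difference over all genes was 0.50 for teratoma against adult and -0.42 for adult against embryo as deposited, and 0.13 and -0.04 after median-ratio scaling or -0.05 and -0.01 after quantile normalization. The share of higher among called genes moved with it. For teratoma against adult it was 80.31% as deposited, 53.11% with median-ratio scaling and 48.66% with quantile normalization. For adult against embryo it was 29.96%, 49.87% and 49.29% in the same order, for transplant against teratoma 18.48%, 43.24% and 45.57%, and for transplant against embryo 35.02%, 51.27% and 46.59%. For transplant against adult it was 61.69%, 51.84% and 48.07%, for derived against native 64.04%, 53.96% and 46.57%, and for teratoma against embryo 59.4%, 59.64% and 49.61%. Relative to the shift, the teratoma libraries had none of the 9 genes above adult after median-ratio scaling and 4 below, and after quantile normalization 1 above, Paics, and 2 below. The counts against embryo stayed within 1 gene.

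After 1 month in muscle, the transplanted cells were lower than the teratoma cells they came from in 4 of the 9 genes. Paics (-0.89), Adsl (-0.87), Gmps (-0.99) and Impdh2 (-0.66) were called lower by limma and none was higher, which is 4 of 9 where 18.5% of genes were called lower, 4.18% higher and 22.6% in either direction. The median of the 9 genes was -0.66 against -0.28 over all genes. Only Gmps was still called after median-ratio scaling, and Adsl and Gmps after quantile normalization. Paics was also lost without teratoma replicate 3 or transplant replicate 3 (adjusted p 0.051 to 0.0552). Ppat differed by -0.82, which was not called (limma adjusted p = 0.0864) but was without transplant replicate 3 (adjusted p = 0.0487). Pfas, read beside the 9 genes, was lower with a difference of -1.24 (limma adjusted p = 0.00133). Gart did not follow, at 8.65 ± 1.13 FPKM in teratoma and 8.51 ± 0.674 in transplant libraries, a difference of -0.02 (95% interval -0.56 to 0.53). Markers of other cells moved in the same comparison. The epithelial and endodermal markers were nearly gone from the transplant libraries, and all 12 cycling genes were lower. Of 7 endothelial markers 5 were called lower (median -1.55), and of 7 fibroblast markers 4 were called higher (median 0.77). The part of any of these in the differences was not tested.

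Between the native groups, which bear on how the references themselves differ, adult cells were lower than embryo cells in Gart (-2.54, limma adjusted p = 5.48e-06), Paics (-2.13, adjusted p = 7.88e-06), Adsl (-0.97), Gmps (-0.78) and Aprt (-0.64) and higher in Impdh1 (0.72). That is 5 lower and 1 higher of 9, where 36.9% of genes were called lower, 15.8% higher and 52.8% in either direction. Ppat differed by 0.51 (limma adjusted p = 0.2) and was called higher in adult after either scaling (0.84 and 1.02). Gmps was not called after median-ratio scaling (-0.27, adjusted p = 0.239).

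Each of the other 9 genes had a gene of closest pattern over the 12 libraries, given as Pearson r without a test: Mcat for Aprt (0.932), Gde1 for Ada (0.918), Csnk1g3 for Ppat (0.972), Elp3 for Gart (0.982), Tacc3 for Paics (0.985), 8430427H17Rik for Adsl (0.97), Nasp for Gmps (0.982), Cbll1 for Impdh1 (0.929) and Shmt1 for Impdh2 (0.96). Tacc3 encodes a protein of the mitotic spindle, Nasp a histone chaperone of dividing cells, and Shmt1 an enzyme that feeds folate-bound carbon into purine and thymidylate synthesis. Among the 10 genes themselves, Gart and Paics had an r of 0.835 and Gmps and Impdh2 of 0.867, whereas Ppat and Gart had -0.09 and Ppat and Paics 0.14. These libraries share groups, so the values mostly reflect group means.

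Among the carriers and receptors of purines and nucleosides, 2 of 8 tested genes were called higher and 1 lower in derived than in native cells, near the shares of all tested genes (23.6% higher and 13.2% lower). The median was 0.14 against 0.11. Slc29a1, the equilibrative nucleoside transporter ENT1, measured 21.4, 29.2 and 32.9 FPKM in teratoma, 39.4, 28.9 and 31.8 in transplant, 15.0, 14.4 and 11.3 in embryo and 12.6, 15.8 and 11.5 in adult libraries. Every derived library was above every native one, as for 4.92% of genes, and the difference was 1.12 (limma adjusted p = 0.000132). Each derived group was also called higher than each native group, though teratoma against adult was not after median-ratio scaling (adjusted p = 0.114). Slc43a3, a carrier of purine bases, averaged 13.6 ± 4.26 FPKM in teratoma, 20.7 ± 10.7 in transplant, 12.6 ± 1.82 in embryo libraries and 62.1 ± 5.13 in adult libraries. Its difference of -0.79 (limma adjusted p = 0.014) lay with the adult group: neither derived group was called different from embryo (0.08 and 0.57). Entpd1, which breaks down extracellular ATP, was higher by 0.56 (limma adjusted p = 0.0421), but was lost in 14 of 19 alternatives (adjusted p up to 0.463), 8 of them leaving out teratoma replicate 1 or 3, transplant replicate 1 or 3, embryo replicate 1 or 2, or adult replicate 1 or 3.

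Purine synthesis takes carbon units from folate, and the genes of one-carbon supply were read beside it. Of 15 tested, 4 were called higher and 4 lower in derived than in native cells, where 23.6% of all genes were called higher and 13.2% lower. The median was 0.17 against 0.11 over all genes. Aldh1l2, the mitochondrial formyl-tetrahydrofolate dehydrogenase, measured 4.43, 4.34 and 3.79 FPKM in teratoma and 7.75, 4.79 and 3.66 FPKM in transplant libraries. It stood at 0.378, 0.170 and 0.402 FPKM in embryo and 0.308, 0.266 and 0.0621 FPKM in adult libraries. Derived libraries were thus all higher, by 2.17 (limma adjusted p = 7.54e-06). Its cytosolic relative Aldh1l1 was higher by 1.43 (limma adjusted p = 0.000428), with 3.74–5.16 FPKM in teratoma, 0.759–1.98 in transplant, 0.0474–1.16 in embryo libraries and 0–0.124 in adult libraries.

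On the lower side, Shmt1 differed by -1.52 (limma adjusted p = 0.00093), from 7.80 ± 3.32 FPKM in teratoma and 1.72 ± 1.40 in transplant to 16.5 ± 3.02 in embryo and 9.08 ± 1.94 in adult libraries. This call held in each of the 20 alternatives.

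**Figure D5:**
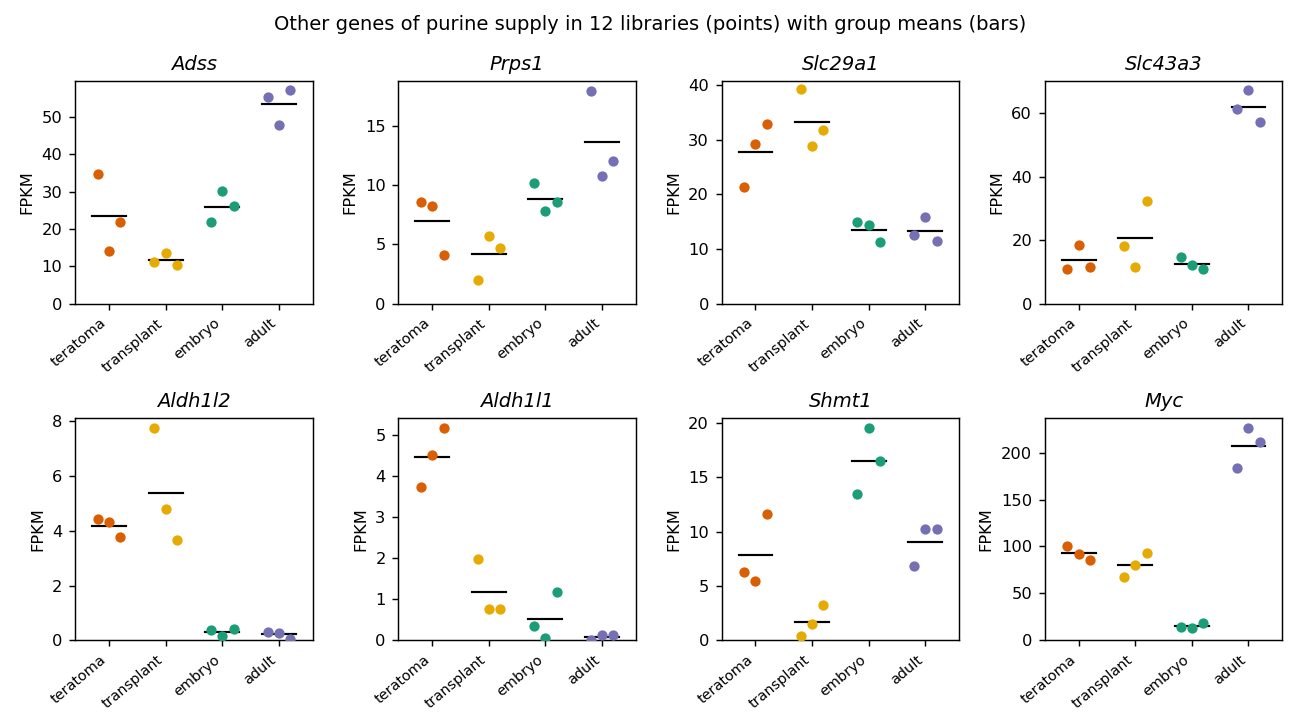
FPKM of 8 other genes of purine supply in 12 libraries (points, 3 per group) with group means (bars), each on an axis starting at 0. Slc29a1 and Aldh1l2 are higher in all 6 derived libraries than in any native one, and Adss, Prps1, Slc43a3 and Myc have their highest mean in adult cells.

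In the list of pyrimidine synthesis and salvage, 4 of 14 tested genes were called higher and 4 lower, against the same 23.6% and 13.2% of all genes, with a median of 0.12. Upp1, uridine phosphorylase, was higher by 1.49 (limma adjusted p = 0.000505), with 9.44–12.3 FPKM in teratoma, 2.93–6.97 in transplant, 0–1.06 in embryo libraries and 3.68–5.78 in adult libraries, so transplant and adult overlapped. Uckl1, a uridine-cytidine kinase, was higher by 1.62 (limma adjusted p = 0.0126) but was listed at 0 in all embryo libraries, 1 transplant and 1 adult library. Tk1, the thymidine kinase of S phase, was lower with a difference of -1.13 (limma adjusted p = 0.000755). That value averages opposite differences: teratoma exceeded adult by 1.84 (limma adjusted p = 0.000213), while teratoma was below embryo and transplant below both native groups. Tk1 measured 8.81–12.8, 0.484–1.75, 26.2–40.9 and 1.93–2.93 FPKM in teratoma, transplant, embryo and adult libraries. Umps, which completes uridine monophosphate, was lower with a difference of -1.08 (limma adjusted p = 0.00229), with means of 7.36, 2.29, 14.0 and 6.56 FPKM in that order.

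In purine breakdown and interconversion, 3 of 15 tested genes were called higher and 1 lower in derived cells, shares below the 23.6% and 13.2% of all genes, and the median was -0.01 against 0.11. All 4 calls were weak. Nt5c, a nucleotidase (0.97, limma adjusted p = 0.0239), was lost without teratoma replicate 2, embryo replicate 3 or adult replicate 2 or 3 (adjusted p 0.0507 to 0.0618). Gmpr, GMP reductase (0.88 with limma adjusted p = 0.0333), was lost without transplant replicate 2, embryo replicate 2 or 3, or any adult library (adjusted p 0.0531 to 0.0667), and with quantile normalization, and it averaged at most 1.28 FPKM in any group. Nudt16 (0.61, limma adjusted p = 0.0411) was lost without teratoma replicate 2 or 3, embryo replicate 1 or 2, or adult replicate 1 or 3 (adjusted p 0.0578 to 0.104), and also with a pseudocount of 0.1 or quantile normalization. Nt5e, the CD73 ecto-nucleotidase (-0.61, limma adjusted p = 0.046), was lost in 10 leave-outs, all but transplant replicate 3 and embryo replicate 2 (adjusted p 0.0536 to 0.106), and also with a pseudocount of 0.1 or no filter.

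Among 6 regulators of these pathways, Myc was called higher in derived than in native cells and Max and Mycn lower. Of all genes, 23.6% were called higher and 13.2% lower. MYC is a transcription factor known to drive nucleotide synthesis genes. Myc measured 99.9, 92.2 and 85.6 FPKM in teratoma and 67.4, 79.9 and 93.1 FPKM in transplant libraries. It was 13.7, 13.2 and 17.9 FPKM in embryo and 183, 226 and 211 FPKM in adult libraries, so the derived groups lay between the native ones without overlap. The derived groups were above embryo by 2.56 and 2.35 and below adult with a difference of -1.15 and -1.36, each called by limma, and the pooled value of 0.60 (adjusted p = 0.002) averages these opposite differences. Myc was thus lowest and Mycn highest in embryo cells, where Gart, Paics and Gmps were highest. The part of either regulator in the level of these genes was not tested. Max, the partner of MYC, differed by -0.73 (limma adjusted p = 0.0151), but neither derived group was called different from embryo (0.128 and -0.335). It averaged 17.4 ± 6.83, 12.4 ± 4.78, 15.2 ± 2.21 and 37.4 ± 2.94 FPKM in teratoma, transplant, embryo and adult libraries. Mycn, an embryonic relative, averaged 2.57, 2.29, 7.41 and 2.75 FPKM in that order, and its call (-0.67, limma adjusted p = 0.0421) was lost in 10 leave-outs, all but transplant replicate 2 and adult replicate 2 (adjusted p 0.056 to 0.1), and also with a pseudocount of 0.1, no filter or library weights.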

How the data were processed

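RNA-seq libraries of 12 sorted mouse samples, 3 in each of 4 groups taken from the labels, were read from 1 deposited table of FPKM values per gene. Per the submitters' processing notes, the tools were Partek, Cufflinks 2.2.1.0, TopHat 0.7 and CASAVA 1.8.2, in no stated order, and the build was mm10. The labels' protocols give a stranded total RNA kit. The authors' FPKM is normalised to transcript length and library size. Neither read depth nor the use of strand in counting is given in the sources used here, so precision rests on the spread of 3 libraries.

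Rows of a repeated symbol were summed (240 symbols, 23284 in all). The filter kept 12699 genes that reached 1 FPKM in 3 or more libraries, and these were tested on log2(FPKM + 1) with limma 3.58.1 in R 4.3.3, with 1 linear model over 4 groups (8 residual degrees of freedom), a mean-variance trend and Benjamini-Hochberg adjustment over all genes within each of 7 comparisons. Calls required an adjusted p under 0.05. Derived against native is the mean of teratoma and transplant minus the mean of embryo and adult. The scripts were tested on simulated data. All p-values of limma are two-sided.

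The members and gene lists were chosen with earlier results of these data known. Beyond the 10 members, named genes were up to 4 per list (called between derived and native cells, largest difference), Pfas, Atic and Myc, 5 tested neighbours on each side of Hprt, the 5 genes most like Hprt and with the widest gap, and 1 gene most like each other member. Not every gene that this rule names is reported here. Coordinates are from GENCODE M21, sequences from RefSeq. Alternatives were another pseudocount, filter or scaling, library weights, a replicate block, only the groups compared, the largest row of a repeated symbol and leaving out each library.

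Libraries with the same replicate number did not deviate together (18 pairs, correlations -0.095 to 0.096), so the numbers were not used to pair samples.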

Additional observations from a re-analysis of the deposited data

How the results depend on the processing

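Of 1307 differences of the 9 members other than Hprt under an alternative, 1208 kept their direction and their side of the threshold, 46 lost a call, 22 gained one and 31 changed sign. Every sign change was in a difference that was not called. With median-ratio scaling these were Aprt in teratoma against adult (-0.20), transplant against adult (-0.11) and transplant against teratoma (0.092), Impdh1 in transplant against embryo (0.24) and against teratoma (0.22), Gart in transplant against teratoma (0.27), and Ada (0.11) and Impdh2 (0.21) in adult against embryo. With quantile normalization they were Ada in teratoma against adult (-0.24) and adult against embryo (0.40), Impdh1 in transplant against embryo (0.22) and teratoma (0.22), and Aprt (0.022) and Gart (0.29) in transplant against teratoma. With library weights they were Impdh1 in transplant against embryo (0.036) and Gart in transplant against teratoma (0.044). With 1 library left out, the differences of these genes spanned 0: from -0.18 to 0.15 for Impdh1 in teratoma against embryo, from -0.26 to 0.094 for Gmps in teratoma against adult, from -0.25 to 0.065 for Impdh1 in transplant against embryo, and from -0.003 to 0.24 for Aprt in transplant against adult. In transplant against teratoma they ran from -0.37 to 0.053 for Aprt, from -0.032 to 0.21 for Ada, from -0.11 to 0.063 for Gart and from -0.27 to 0.11 for Impdh1.

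With a filter at a mean of 5 FPKM, which tests fewer genes, 2084 were called in teratoma against embryo (3308 as reported), 3720 in teratoma against adult (5763) and 4370 in adult against embryo (6699). Of the 9 members, 2 were called in teratoma against embryo with only these groups fitted (4 as reported), 3 in teratoma against adult with quantile normalization (5), 1 and 2 in transplant against teratoma with median-ratio scaling and quantile normalization (4), and 5 between derived and native with median-ratio scaling (3). The causes were not tested. Leaving out 1 library gave 2 to 4 members and 2123 to 3184 genes in teratoma against embryo, both lowest without teratoma replicate 2, and 3 to 5 members between derived and native, highest without transplant replicate 2. In transplant against teratoma it gave 1524 to 3285 genes, lowest without teratoma replicate 1, and 1803 without transplant replicate 1 (2874 as reported).

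The replicate number as a block left 3 members called between derived and native and 3009 genes in teratoma against embryo (3308 without it), and changed none of 63 member calls. Among the other genes named, it ended the calls between derived and native cells of Prps2 (adjusted p = 0.0584), Nt5e (0.0596), Nudt16 (0.0658), Entpd1 (0.0506) and Mycn (0.0611). Of 12 libraries, 3 correlated best with one of their own number. Depth is unknown, so values near 0 FPKM, as for Hprt, Gmpr and Nudt16, have no counting error attached.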
